A study of Mus musculus with 14 samples.

Results

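The genes described here carry out glutamate uptake and the glutamate-glutamine cycle: Slc1a2, Slc1a3, Slc1a4, Slc1a5, Slc38a3, Glul, Glud1, Got1 and Got2. They were chosen by gene symbol, and 12 of the 18179 array probes with 1 gene symbol carry one of these names, so that 9 of 13661 named genes were followed. The samples were primary astrocyte cultures from newborn mice, and the series compares how astrocytes respond to the lifelong absence and to the acute loss of connexin43 (Cx43, encoded by Gja1), the main gap junction protein of these cells. The wild-type group was untreated, the Cx43 null group came from mice without a functional Cx43 gene, and the Cx43 siRNA group was wild-type cells transfected with an siRNA against Cx43. Treatment with the siRNA lasted 36 h by the series design and 48 h by the protocol for protein; no sample is labelled as mock-transfected, so transfection and knockdown cannot be told apart. The titles name cortical astrocytes, while the protocol describes whole brain tissue kept in medium with serum. Strain and null allele are not given in the sources.

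Astrocytes take up the glutamate released at synapses through sodium-coupled carriers, chiefly GLT-1 (Slc1a2) and GLAST (Slc1a3). Glutamine synthetase (Glul) joins glutamate to ammonia, and the glutamine leaves the cell by system N carriers such as SNAT3 (Slc38a3) and returns to neurons. Glutamate that is not amidated enters the mitochondrial citric acid cycle through glutamate dehydrogenase (Glud1) or through the aspartate aminotransferases (Got1 in the cytosol, Got2 in mitochondria).

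Each value is a log2 value that the authors centred, so that 0 is the median of a sample's probes; a value of 3 for one probe cannot be set against a value of 3 for another. Values are given in replicate order: wild-type replicates 3, 4 and 6, null replicates 1 to 4 and siRNA replicates 1 to 4. Wild-type replicates 1, 2 and 5 stood apart from the rest in the deposited table. The first 2 of these enter only as an alternative, realigned by grid row as described under the processing, and replicate 5 was not used. In the other 11 samples 53.1% to 79.8% of 33600 probes had a value, with no signal over background to set beside it. Replicates 1 and 2 (the first replicate set) differed from replicates 3 and above (the second replicate set) at 46.5% of the 16307 probes tested, and every wild-type sample in the fit belonged to the second set. Consecutive replicates of a group carried opposite dyes and were very alike (r across probes 0.923 to 0.990 in the null and siRNA groups, against 0.709 to 0.786 across sets), so each comparison is also given with these pairs as a random block, called array pairs below. The series design states 4 cultures per group, while wild type has 6 samples. No label ties a sample to a culture, so p-values reflect sample-to-sample spread only, part of which may be technical.

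Gja1 itself, the target of both manipulations, was at 6.08, 7.53 and 4.82 in wild type, at -1.17, -1.06, 2.82 and 3.03 in null and at 1.93, 2.14, 5.47 and 5.70 after siRNA. It fell by 3.31 ± 0.58 (log2, SE) in null samples (limma, adjusted p = 0.0478, or 0.276 with array pairs). The difference of siRNA samples from wild type was -0.41 ± 0.58 (adjusted p = 0.733), so this probe does not bear out the label of the siRNA samples in this fit, and the group is named by its label. Whether the probe lies inside the deletion is not given in the sources. Of 14 astrocyte markers, Gfap had a value in none of the 11 samples and Gjb6 had no probe, while S100b had a value in 7 and Apoe in 5. The water channel Aqp4, at its tested probe with the highest mean, was above its sample's median in all 11. Others were not: in siRNA replicates 1 and 2 Aldoc was at -2.70 and -2.44 and Fgfr3 at -0.26 and -0.007. Ntsr2 was at -0.04 in siRNA replicate 1.

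A probe is called here where its limma adjusted p (Benjamini-Hochberg over all probes tested) is under 0.05. Among the members, 1 of 9 tested probes fell in siRNA samples against wild type, a share to be read against the 7.52% of all tested probes called in that comparison (2.12% lower). None of the 9 was called in null samples against wild type, where 0.362% of all probes were called and 1 member probe (Glud1) had an unadjusted p under 0.05. Between null and siRNA samples 2 of 9 were called, 1 higher and 1 lower in null, against 6.41% of all probes (3.81% higher and 2.6% lower in null). With the replicate number as a block, the calls against wild type were 0 in null and 2 in siRNA samples, against 0.978% and 8.55% of all probes, and 2 between null and siRNA samples, against 9.57%. With array pairs no member was called in any of the 3 comparisons, where the background was 0.0%, 1.24% and 0.736% in the same order, and 1, 1 and 4 member probes had an unadjusted p under 0.05. The median change of the 9 probes was -0.03 in null and 0.03 in siRNA samples against wild type, beside 0.20 and 0.13 over all tested probes. The 9 probes stand for 8 genes: Slc1a3 and the other 2 Slc1a2 probes had too few values to be tested.

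**Figure D1:**
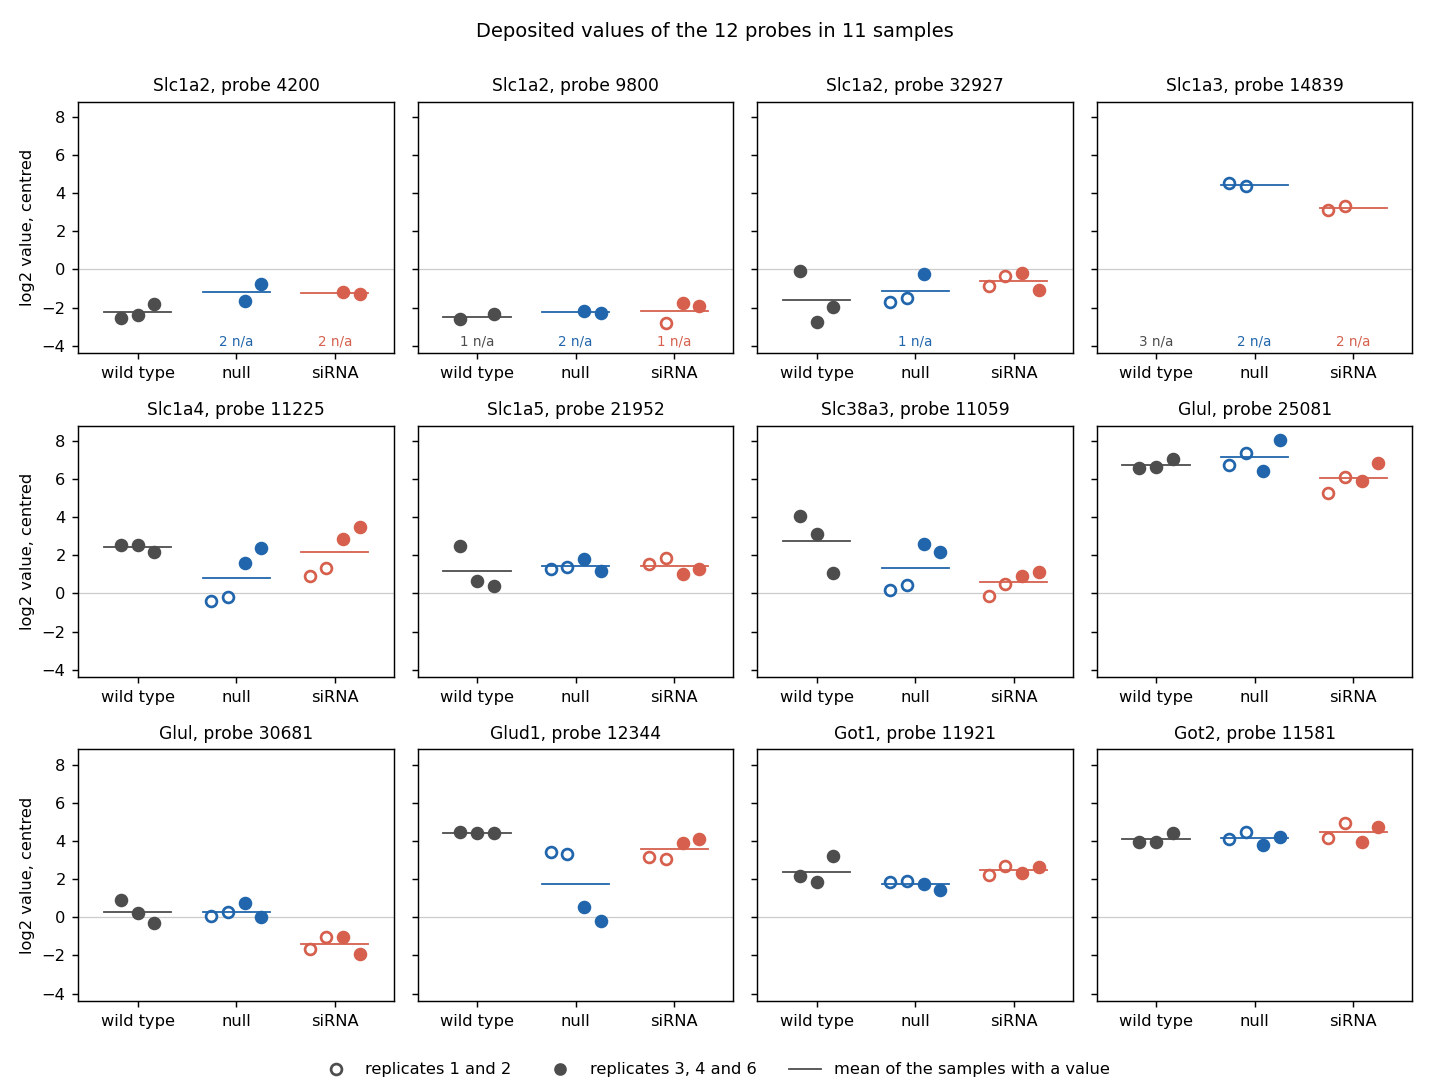
Centred log2 value (vertical axis) of each of the 12 probes in each of the 11 samples, by group; open circles are replicates 1 and 2, filled circles replicates 3, 4 and 6, and the bar is the mean of the samples with a value. Numbers with n/a count samples with no value. All 4 siRNA samples lie below every other sample at Glul probe 30681, and null replicates 3 and 4 lie far below the rest at Glud1.

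The high-affinity glutamate carriers gave the least complete data. Slc1a3, the GLAST carrier that dominates in young astrocytes, had values only in the first replicate set. Its probe was at 4.54 and 4.35 in null replicates 1 and 2 and at 3.10 and 3.30 in siRNA replicates 1 and 2, with no value in any replicate numbered 3 or above, wild type included. Both null samples were above both siRNA samples. In a fit of null and siRNA samples alone, null samples were higher by 1.25 ± 0.40, which was not called (limma, adjusted p = 0.115). Wild-type replicates 1 and 2, once realigned, read 3.58 and 3.93, between the 2 other groups. In that fit of 13 samples the difference from these wild-type samples was 0.69 ± 0.53 for null (adjusted p = 0.571) and -0.56 ± 0.53 for siRNA samples (adjusted p = 0.618).

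Slc1a2, the GLT-1 carrier that astrocytes acquire as they mature alongside neurons, was below its sample's median wherever it was measured, at all 3 of its probes. Probe 32927 was at -0.06, -2.74 and -1.96 in wild type, at -1.69, -1.52 and -0.26 in null replicates 1 to 3, and at -0.87, -0.37, -0.16 and -1.09 after siRNA. Wild type had the widest spread, and the groups overlapped. The difference from wild type was 0.39 ± 0.70 in null (limma, adjusted p = 0.853) and 1.01 ± 0.61 in siRNA samples (adjusted p = 0.358). The siRNA difference was 1.79 and called after the median residual of neighbouring spots in the same grid column of the array was subtracted (adjusted p = 0.0360). Probe 4200 was measured in 7 samples, all of the second replicate set. It read -2.53, -2.39 and -1.80 in wild type, -1.67 and -0.74 in null replicates 3 and 4, and -1.21 and -1.31 in siRNA replicates 3 and 4, so that the 4 null and siRNA samples were above the 3 wild-type samples. With at least 2 values asked of every group, the difference was 1.10 ± 0.47 for null (adjusted p = 0.270) and 1.05 ± 0.47 for siRNA samples (adjusted p = 0.215), and neither was called. Probe 9800, also measured in 7 samples, stayed between -2.81 and -1.76, with means of -2.48 in wild type, -2.22 in null and -2.17 in siRNA samples.

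Of the neutral amino acid carriers of the same family, Slc1a4 was called in 1 comparison and Slc1a5 in none. Slc1a4 (ASCT1), which exchanges alanine, serine and cysteine, was lower in null than in siRNA samples. Its probe read 2.51, 2.56 and 2.15 in wild type, -0.42, -0.20, 1.57 and 2.36 in null, and 0.91, 1.33, 2.86 and 3.47 after siRNA. Within each replicate set both null samples were below both siRNA samples, with a difference of -1.43 in the first set and -1.21 in the second. Over both sets the null samples were lower by 1.32 ± 0.30, a 2.49-fold difference (limma, adjusted p = 0.0249; 0.171 with array pairs). Against wild type the change was -0.44 ± 0.36 in null (adjusted p = 0.613) and 0.88 ± 0.36 in siRNA samples (adjusted p = 0.161), neither called. With the realigned wild-type replicates 1 and 2, which read 0.91 and 1.62, these were -0.91 and 0.41, and the null to siRNA difference was not called (adjusted p = 0.0578). The siRNA samples of the first set differed from those 2 by -0.14 and the null samples by -1.57. In the second set the differences of group means from wild type were 0.76 for siRNA and -0.44 for null samples. With these grid column residuals subtracted, the siRNA change was 1.99 and called (adjusted p = 0.00598), and the null to siRNA difference was -2.46 (adjusted p = 0.00101). The larger split at this probe followed the replicate number: the second set was above the first by 2.16 ± 0.30 (adjusted p = 0.000141; 0.0020 with array pairs). Leaving out any of the 8 null or siRNA samples took the adjusted p of the null to siRNA difference above 0.05, to between 0.0583 and 0.100.

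Slc1a5 (ASCT2), which carries glutamine, was called in no comparison. It read 2.49, 0.63 and 0.38 in wild type, 1.27, 1.40, 1.82 and 1.19 in null, and 1.54, 1.85, 1.02 and 1.29 after siRNA. The null and siRNA samples lay within the range of the 3 wild-type samples. Both differences from wild type were 0.08 ± 0.51 (limma, adjusted p = 0.962 for null and 0.947 for siRNA samples), and with the replicate number as a block they were -0.24 and -0.23.

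Slc38a3, the system N carrier by which glutamine leaves astrocytes, read 4.07, 3.09 and 1.07 in wild type, 0.15, 0.46, 2.59 and 2.17 in null, and -0.13, 0.51, 0.91 and 1.10 after siRNA. All but 1 of the 4 siRNA samples were below the lowest wild-type sample, and that sample exceeded it by less than the spread of either group. The change in siRNA samples was -1.48 ± 0.66 and was not called (limma, adjusted p = 0.201). With the replicate number as a block, which uses wild-type replicates 3 and 4 and leaves out replicate 6, it was -2.26 ± 0.48 and was called (adjusted p = 0.0185). Without wild-type replicate 6 the unblocked fit also gave -2.26 (adjusted p = 0.0236), and without wild-type replicate 3 it gave -0.67 (adjusted p = 0.565). The realigned wild-type replicates 1 and 2 read 0.28 and 0.83, and the siRNA samples of the same set differed from them by -0.36. The second replicate set was above the first by 1.44 ± 0.55 (adjusted p = 0.0497; 0.124 with array pairs).

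Glutamine synthetase was measured by a bright and a dim probe that name the same transcript. At the dim probe, 30681, siRNA samples were lower than both other groups. It read 0.88, 0.22 and -0.31 in wild type, 0.08, 0.26, 0.76 and 0.0051 in null, and -1.65, -1.04, -1.06 and -1.92 after siRNA. The 4 siRNA samples were below all 7 others, in both replicate sets. Against wild type Glul fell by 1.73 ± 0.42, a 3.32-fold difference (limma, adjusted p = 0.0311; 0.190 with array pairs), and by 2.02 with the realigned wild-type replicates, which read 0.51 and 1.47, added (adjusted p = 0.0106). Null samples were above siRNA samples by 1.70 ± 0.35, a 3.24-fold difference (adjusted p = 0.0187; 0.146 with array pairs), and differed from wild type by -0.03 ± 0.42 (adjusted p = 0.982). These comparisons share the 4 siRNA samples. Leaving out 1 sample moved the adjusted p to between 0.0224 and 0.192 against wild type, and 6 of the 11 samples took it above 0.05 when left out: wild-type replicates 3 and 4, null replicates 2 and 4, and siRNA replicates 3 and 4. The null to siRNA call also ended, at an adjusted p from 0.0545 to 0.0849, when any 1 of null replicates 2 to 4, or of siRNA replicates 1, 3 and 4, was dropped.

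The bright Glul probe, 25081, ordered the groups null, wild type, siRNA by their means, and the differences of the siRNA samples from both other groups were smaller. The difference of null samples from wild type was larger than at the dim probe, at 0.76 ± 0.39 against -0.03, and was not called (limma, adjusted p = 0.379). It read 6.56, 6.60 and 7.04 in wild type, 6.71, 7.34, 6.39 and 8.06 in null, and 5.24, 6.11, 5.89 and 6.85 after siRNA. In all 5 consecutive pairs of replicates the even-numbered, Cy5-labelled sample was the higher one, and the groups overlapped. The null samples were above the siRNA samples by 1.10 ± 0.32, not called (limma, adjusted p = 0.0647; 0.321 with array pairs), by 1.34 in the first replicate set and 0.85 in the second. This difference was near the threshold. It was called with array weights (limma, adjusted p = 0.0150), with means above 0 (0.0458) and with null and siRNA samples alone (0.0467). It was also called in 1 of 11 fits that left out 1 sample. The siRNA samples differed from wild type by -0.34 ± 0.39 (adjusted p = 0.657), so the fall seen at the dim probe was not found here. Whether the difference between the probes exceeds their error was not tested.

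**Figure D2:**
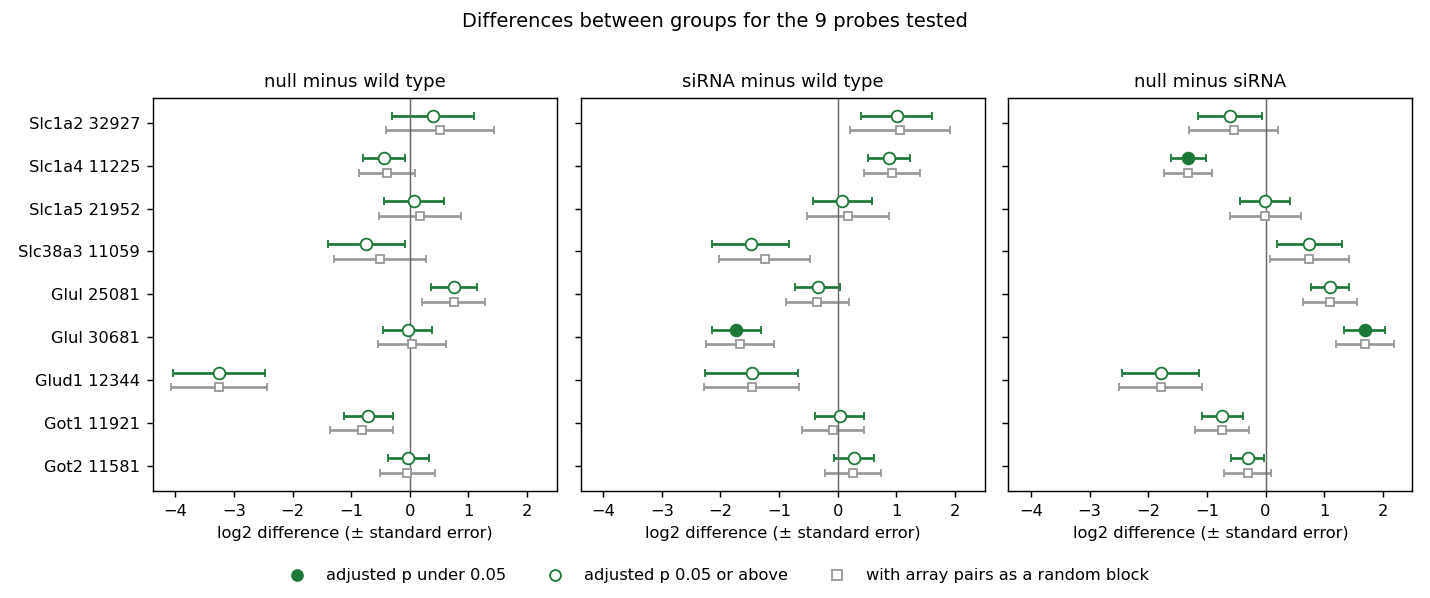
Log2 difference (horizontal axis, ± SE) between groups for the 9 tested probes in the 3 comparisons, from limma over 11 samples (circles, filled where the adjusted p is under 0.05) and with array pairs as a random block (grey squares). The filled circles are Glul 30681, in siRNA against wild type and in null against siRNA, and Slc1a4, in null against siRNA.

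Other transcripts moved in the siRNA samples in which the dim Glul probe was low. The mean log2 value of 7 interferon response genes, measured in all 11 samples, was 5.00 to 5.74 in the siRNA samples, against -0.45 to 1.49 in wild type and -0.06 to 1.78 in null. In siRNA samples 7 of 8 tested interferon genes rose against wild type, and 5 with array pairs. This list was drawn up for the siRNA samples with earlier results of these data known, so its count is a description and not a test. Of all tested probes, 7.52% were called in siRNA samples against wild type (2.12% lower), and 1.24% with array pairs. The marker counts that follow are to be read against these shares. The mean of 10 microglia markers was 2.09 to 2.69 in siRNA samples, 3.79 to 4.12 in wild type and 2.49 to 5.03 in null; 6 of 11 tested markers fell against wild type, and 2 with array pairs. The null mean was 4.88 in the first replicate set and 2.90 in the second. The mean of 9 astrocyte markers was 1.37 to 2.97, 3.08 to 3.68 and 2.66 to 3.47 in the same order, with siRNA means of 1.56 in the first set and 2.90 in the second, and a wild-type mean of 3.40 in the second. Of 10 tested astrocyte markers, Aldoc and Slc4a4 fell and Aldh1l1 rose in siRNA samples against wild type, and none of the 3 was called with array pairs (adjusted p = 0.146, 0.0794 and 0.193). Neuronal markers averaged -1.004 to -0.10 in siRNA samples, 0.12 to 0.58 in wild type and -0.30 to 0.30 in null, and 3 of 5 tested (Stmn2, Syn1 and Tubb3) fell in siRNA samples against wild type, with adjusted p of 0.136, 0.130 and 0.183 with array pairs. Fibroblast and mural markers averaged 0.12 to 1.67, 2.24 to 3.78 and -0.08 to 2.04 in the same order, and oligodendrocyte lineage markers 0.70 to 2.20, 2.16 to 2.94 and 1.76 to 2.89. Both lists differed between the replicate sets. The fibroblast and mural mean was 0.47 and 1.35 in siRNA and 0.007 and 1.73 in null samples, by set. For the oligodendrocyte lineage these means were 1.11 and 2.14, and 1.88 and 2.69. Wild type, in the second set only, averaged 3.06 and 2.58 for these 2 lists. In siRNA samples against wild type, the limma adjusted p of the 4 tested markers of the former list was 0.0877 (Col1a1) to 0.781 (Fn1), and that of the 6 of the latter 0.114 (Sox10) to 0.975 (Cspg4). The part of these shifts in the Glul and Slc1a4 differences was not tested, and fewer cells of a type and less RNA per cell cannot be told apart in such samples.

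Glud1, which splits ammonia from glutamate in mitochondria, had the largest numerical difference from wild type among the tested members, and it came from the second set of null samples. It read 4.46, 4.42 and 4.40 in wild type, 3.43, 3.30, 0.53 and -0.18 in null, and 3.17, 3.06, 3.88 and 4.13 after siRNA. Null replicates 1 and 2 were above siRNA replicates 1 and 2, whereas null replicates 3 and 4 were the lowest of all 11. The change in null samples was -3.26 ± 0.79 (limma, adjusted p = 0.0861), and -4.28 ± 0.48 when replicates 3 and above were fitted alone (adjusted p = 0.000145). In the first set the null samples exceeded the realigned wild-type replicates, at 3.14 and 3.30, by 0.14.

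The low Glud1 values of null replicates 3 and 4 stood in a run of low spots on the array. The array was printed as blocks of 25 grid rows, and Glud1 lies in row 16 of its grid column. From row 14 on, the 5 other measured spots of that grid column were also low in these samples. Their median difference from the mean of the 9 other samples was -3.44 in null replicate 3 and -3.76 in null replicate 4, where Glud1 itself differed by -3.27 and -3.985. Spots above row 14 differed by a median of -0.32 and -0.01, and the grid columns on either side by medians between -0.78 and -0.09. By its median from row 14 on, with the Glud1 spot included, this grid column ranked 1 of 1321 from the lowest in null replicate 3. It ranked 2 of 1318 in null replicate 4. Row 14 was set as the start because the low values begin there, so these ranks are a description and not a test. After the median residual of up to 6 spots above and below in the same grid column was subtracted from each value, the Glud1 change in null samples was -0.55 ± 0.30 (limma, adjusted p = 0.376).

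**Figure D3:**
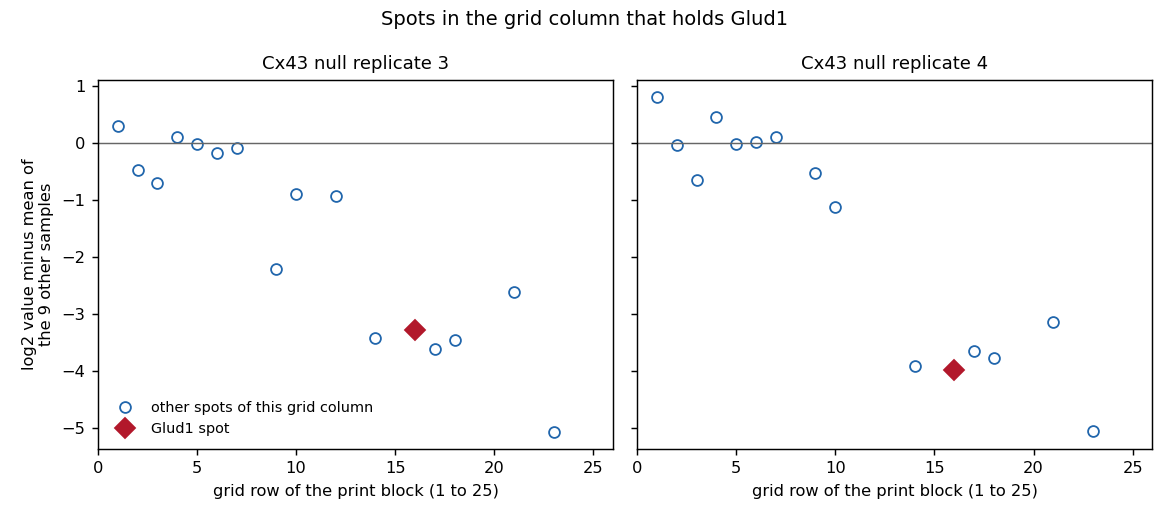
Log2 value in null replicate 3 (left) and null replicate 4 (right) minus the mean of the 9 other samples (vertical axis), for the spots of the grid column that holds Glud1, by grid row (horizontal axis); the diamond is Glud1. From row 14 on, every measured spot lies far below 0 in both samples.

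The aspartate aminotransferases, which pass the amino group of glutamate to oxaloacetate and serve the malate-aspartate shuttle, were called in no comparison. Got1 read 2.14, 1.85 and 3.20 in wild type, 1.88, 1.91, 1.72 and 1.41 in null, and 2.21, 2.69, 2.33 and 2.64 after siRNA. The 4 null samples were all below the 4 siRNA samples, but the difference of -0.74 ± 0.35 was not called (limma, adjusted p = 0.215), and against wild type the null change was -0.71 ± 0.42 (adjusted p = 0.461). Got2 read 3.94, 3.96 and 4.44 in wild type, 4.13, 4.47, 3.78 and 4.19 in null, and 4.16, 4.97, 3.93 and 4.74 after siRNA. Its 3 differences lay between -0.31 and 0.28 with errors of 0.29 to 0.34, and none was called.

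Promoter sequence was read for 7 of the 9 members (RefSeq, GRCm38.p6, 250 bases before to 50 after each start); Slc1a5 and Slc38a3 are named only. A single short motif, chosen with the values known, was searched on both strands: TTGCATCA, the composite element of C/EBP and ATF factors that many amino acid-regulated genes carry. It was found in 2 of the 7 member promoters, those of Slc1a4 and Got1. It was also found in 4 of 100 promoters of the pathway lists described below and in 294 of all 32851 promoters (0.895%). A match is a description of these letters, not a binding site. The matches are shown in capitals, 5′ to 3′ on the gene's strand, and begin 4 bases before the start of Slc1a4, at chr11:20332699-20332728 (minus strand), and 102 bases before the start of Got1, at chr19:43524689-43524718 (minus strand).
Slc1a4: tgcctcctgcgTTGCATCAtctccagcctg
Got1: cattgcattggTTGCATCAtacaagcctcc

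The wider pathway was followed with 4 gene lists, of which 44 genes had a tested probe. Against wild type, null samples had 0 called genes in all 4 lists (limma; 7 of 44 had an unadjusted p under 0.05), and siRNA samples had 6, with 4 higher and 2 lower. Between null and siRNA samples 8 of 44 were called, 5 higher and 3 lower in null. Of all tested probes, 7.52% and 6.41% were called in these comparisons. With array pairs 1 gene, Gria2, was called in each of the 2, where 1.24% and 0.736% of all probes were called.

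Of 25 other glutamate and amino acid carriers, 12 were tested, and their median change in siRNA samples against wild type was -0.26. Slc6a9, the glycine carrier GlyT1, was the 1 carrier that rose there, from 0.31, 0.28 and 0.59 in wild type to 1.42, 2.22, 1.70 and 2.05 (1.78 ± 0.40, adjusted p = 0.0225; 0.121 with array pairs). Null samples were lower than siRNA samples at Slc6a9 (-1.93 ± 0.33, adjusted p = 0.0081) and at Slc3a2 (-1.30 ± 0.34, adjusted p = 0.0436), the heavy chain shared by several amino acid exchangers. Slc38a1, a glutamine carrier, was not called in any comparison; its values were 0.23 ± 0.44 in null and -0.45 ± 0.44 in siRNA samples against wild type. The neuronal carrier Slc1a1 had a value in 3 of the 11 samples and the cystine-glutamate exchanger Slc7a11 in 9, and neither was tested.

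Of 36 enzymes of glutamate, glutamine, GABA and aspartate, 19 were tested, and 3 rose in siRNA samples against wild type. Gclc, the catalytic subunit of glutathione synthesis from glutamate and cysteine, rose by 2.12 ± 0.42 (adjusted p = 0.0140), Aldh5a1, which completes GABA breakdown, by 2.37 ± 0.50 (adjusted p = 0.0182), and Me1, cytosolic malic enzyme, by 1.67 ± 0.42 (adjusted p = 0.0346). Another tested Gclc probe gave 1.94 and was not called (limma, adjusted p = 0.468). At Me1 the siRNA samples of the first set, at 3.65 and 3.55, were below all wild-type samples, which belong to the second set, so this call rests on the term for the replicate set. Asns, which makes asparagine with the amide of glutamine, was at 1.07 to 1.34 in null and at 2.97 to 3.45 in siRNA samples, with wild type between at 1.48 to 2.45 (null minus siRNA -2.002 ± 0.31, adjusted p = 0.00512; 0.0568 with array pairs). Gad2, the GABA-forming decarboxylase of neurons, was 1.89 ± 0.34 higher in null than in siRNA samples (adjusted p = 0.0101). Gclm, the modifier subunit paired with Gclc, was not called, at 0.87 ± 0.72 in siRNA samples against wild type.

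**Figure D4:**
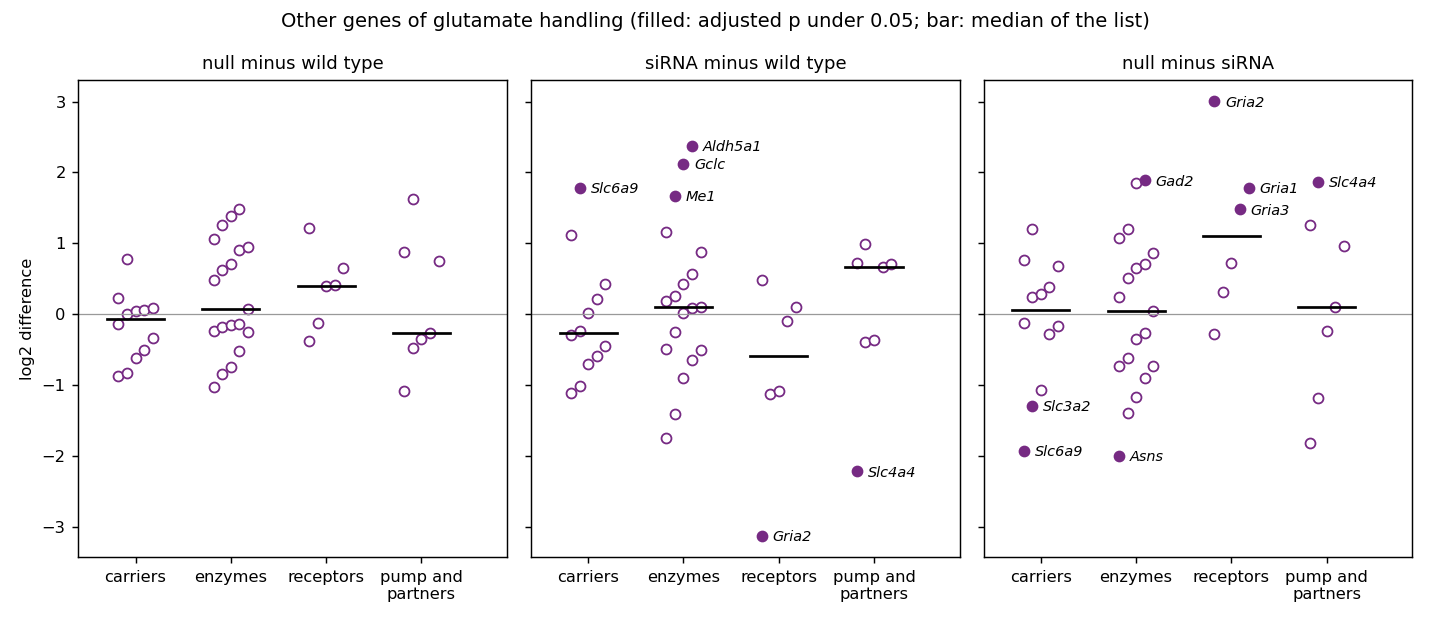
Log2 difference (vertical axis) of the 44 tested genes of the 4 pathway lists in the 3 comparisons; filled circles have a limma adjusted p under 0.05 and are named, and bars are list medians. No gene was called in null against wild type, and Gria2 lies at -3.13 in siRNA against wild type and at 3.001 in null against siRNA.

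Of 23 glutamate receptors 6 were tested, and 1 of them, Gria2, fell in siRNA samples against wild type. Gria2, the subunit that makes these channels impermeable to calcium, read 3.24, 3.04 and 3.31 in wild type, 3.51, 3.47, 2.28 and 3.07 in null, and -0.40, -0.01, 0.14 and 0.59 after siRNA. The siRNA samples did not overlap the other groups. Gria2 fell by 3.13 ± 0.42 against wild type (limma, adjusted p = 0.00258; 0.0168 with array pairs) and was 3.001 ± 0.35 higher in null than in siRNA samples (adjusted p = 0.0010; 0.00935 with array pairs). Gria1 and Gria3 were also higher in null than in siRNA samples, by 1.78 ± 0.29 (adjusted p = 0.00694) and 1.48 ± 0.38 (adjusted p = 0.0402), and neither held with array pairs (adjusted p = 0.0723 and 0.182). Against wild type the siRNA values were -1.12 ± 0.35 for Gria1 (adjusted p = 0.0762) and -1.09 ± 0.45 for Gria3 (adjusted p = 0.1702), and neither was called. Grm3, the metabotropic receptor typical of mature astrocytes, had a value in 4 samples and was not tested.

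Of 14 genes of the sodium pump and of partners that sustain uptake, 7 were tested. Slc4a4, the sodium bicarbonate carrier that is also among the astrocyte markers, read 4.41, 3.87 and 5.12 in wild type, 4.35 to 4.64 in null, and 3.19, 3.66, 1.66 and 1.98 after siRNA. All siRNA samples were below all others. It fell by 2.22 ± 0.49 against wild type (limma, adjusted p = 0.0212; 0.0794 with array pairs) and was 1.87 ± 0.41 higher in null than in siRNA samples (adjusted p = 0.0222; 0.122 with array pairs). Atp1b2, the glial beta subunit of the sodium pump, was 1.62 ± 0.62 in null samples against wild type and was not called (adjusted p = 0.225).

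Over the 11 samples, the probes whose values followed the bright Glul probe most closely were those of Gpank1 (Pearson r = 0.917), Shroom3 (0.909) and Gas2l1 (0.904), where 0.742% of the probes compared had an r over 0.8. For Slc1a2 probe 32927, over the 10 samples with a value, they were those of Polm (0.968), Syt17 (0.955) and Cep41 (0.954), where 1.82% had an r over 0.8. These samples share replicate sets and dyes, and the correlations are a description. Slc1a3 had too few values to be compared in this way.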

How the data were processed

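Total RNA (20 ug per sample) was labelled with Cy3 for odd and Cy5 for even replicates and hybridised to spotted oligonucleotide arrays, per the labels. Values were used as deposited: log2, 1 for each probe in each sample, centred by the authors within print blocks. Scanner, background correction, filters and the reason for missing values are not stated in those sources. Members were matched by symbol in GEO's probe annotation, and promoters came from a RefSeq table of GRCm38.p6.

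One linear model over 11 samples (wild-type replicates 3, 4 and 6, and all null and siRNA samples), with group, dye and replicate set as terms, was fitted in R 4.3.3 by lmFit and eBayes of limma 3.58.1. The 16307 probes with at least 2 wild-type, 3 null and 3 siRNA values entered. Tests were two-sided, with Benjamini-Hochberg adjustment within a comparison. The array-pair fit used duplicateCorrelation, with a consensus correlation of 0.452. The code was tested on simulated data.

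Wild-type replicates 1 and 2 were realigned in 1267 of 1344 block columns, each placed where it matched the other samples best (median r 0.913, against 0.322 at the next best place), which favours likeness to them. Of the 1267, 402 were not moved and 803 moved by 1 row.

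Same-numbered samples of different groups deviated together from their group means: r was 0.121 to 0.647 over 14243 probes for the 8 pairs, and 10 of 10 samples correlated best with a sample of their own number. This pairing comes from the data, not from the labels. Same-numbered samples also share replicate set and dye, which these deviations still hold, so a pairing cannot be told apart from set and dye here. A fit with the replicate number as a block was made beside the other.

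All members and their probes are named. Of the pathway lists, named genes are up to 6 called per comparison by adjusted p, the 4 tested of a further set chosen whatever their values, and genes singled out after their values were seen. A listed gene is represented by its tested probe with the highest mean. The members, lists, motifs and settings were chosen with earlier results of these data known.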

Additional observations from a re-analysis of the deposited data

Results flagged for a closer look

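The difference between the null and the siRNA change from wild type is the null to siRNA comparison already given above, since wild type cancels. It was called at 2 member probes, and both calls were lost when some single samples were left out, as given above. At Slc1a4 probe 11225 the null change minus the siRNA change was -1.32 (log2; limma, adjusted p = 0.0249, or 0.171 with array pairs), lower in null in both replicate sets. At Glul probe 30681 it was 1.70 (adjusted p = 0.0187, or 0.146 with array pairs), with all 4 null samples above all 4 siRNA samples. Of the 17 groups of 4 samples examined, none was flagged by Dixon's ratio as holding a sample far from the others. Each group holds 2 samples of each replicate set, and where the sets differ this ratio can hardly flag 1 sample. The chance rate of about 1 in 20 holds for independent samples, so nothing is concluded from the absence of flags.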

How the results depend on the processing

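Over the 27 member changes and 753 alternative values, 650 kept their direction and their side of the threshold, 10 passed it, 37 lost it and 56 turned direction. Of the 56, 49 belong to changes within 1 SE of 0, and 0 of the 56 were called in either fit. Changes of direction and the larger changes in counts of calls follow, and the cause of each was not tested.

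Without a term for the replicate set, Slc1a4 in siRNA against wild type was -0.20, and it was -0.20 with all 14 columns as deposited. There Glud1 in siRNA samples was 0.55 and Got1 in null samples 0.10 against wild type. Got1 was 0.18 with grid column residuals subtracted, and Got2 in null against siRNA was 0.18 with columns scaled to 1 median absolute deviation. Leaving out 1 sample moved Slc38a3 in null against wild type between -1.52 and 0.0729.

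The changes near 0 follow. Slc1a5 against wild type was -0.24 in null and -0.23 in siRNA samples with the replicate block, and in siRNA samples -0.17 with replicates 3 and above and -0.15 with scaled columns; null minus siRNA was 0.35, 0.0087 and 0.17 with replicates 3 and above, quantile normalization and scaled columns. Glul probe 30681 in null against wild type was 0.033 with array pairs, 0.57 with 14 columns, 0.030 without dye, 0.025 with quantile normalization, 0.016 with scaled columns and 0.056 with array weights. Got2 there was 0.11 without the set term and with array weights, 0.055 with the replicate block, 0.20 with 14 columns, 0.18 with scaled columns, 0.19 in both realigned fits without pairs and 0.17 in the one with array pairs. In siRNA samples against wild type Got2 was -0.043 with grid column residuals subtracted, and Got1 was -0.080 with array pairs and -0.093 with scaled columns. Leaving out 1 sample gave, in null against wild type, -0.15 to 1.35 for Slc1a2, -0.24 to 0.83 for Slc1a5, -0.26 to 0.23 for this Glul probe and -0.18 to 0.10 for Got2. It gave -0.23 to 0.83 for Slc1a5 and -0.27 to 0.40 for Got1 in siRNA samples against wild type, and -0.27 to 0.27 for Slc1a5 in null against siRNA.

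Member probes called, from 0 in null against wild type, were 1 with replicates 3 and above alone (Glud1). From 1 in siRNA against wild type, they were 0 without the set term, with array pairs, with 14 columns, with scaled columns and with 13 realigned samples in array pairs, 2 with the replicate block and 3 with grid column residuals subtracted. Member probes called there were also 0 with means above 0, a setting that leaves out the called probe, Glul 30681, whose mean was below 0. From 2 in null against siRNA, they were 0 without the set term, with array pairs, with 14 columns and with realigned array pairs, and 1 with scaled columns and in both other realigned fits. With replicates 3 and above alone, Glud1 was called there at -3.83 (limma, adjusted p = 0.000251) and Glul 30681 stayed called (0.0324). Slc1a4 was not called in that fit (0.155). Leaving out 1 sample gave 0 to 2 in siRNA against wild type and 0 to 3 in null against siRNA.

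Pathway genes called in null against wild type went from 0 to 1 with replicates 3 and above alone. In siRNA against wild type they went from 6 to 1 without the set term, with array pairs or with scaled columns, and to 0 with 14 columns and with realigned array pairs. In null against siRNA they went from 8 to 2 without the set term, 1 with array pairs, 0 with 14 columns, 13 with array weights and 1 with realigned array pairs. Leaving out 1 sample gave 1 to 6 and 5 to 10.

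All probes called in null against wild type, 59 of 16307, were 0 without the set term, with array pairs, with 14 columns and in the 3 realigned fits, 155 with the replicate block, 877 with replicates 3 and above, 145 without dye, 10 with scaled columns, 12 with array weights, 126 with 2 values in every group, 119 with means above 0, 94 with a robust trend, and 1 to 133 without 1 sample. In siRNA against wild type, 1226 became 39 without the set term, 202 with array pairs, 43 with 14 columns, 784 realigned, 316 scaled, 2336 with grid column residuals subtracted, 104 realigned with array pairs, and 236 to 1191 without 1 sample. In null against siRNA, 1046 became 73, 120, 23, 605, 638, 2020 and 58 in the same order, 1893 with replicates 3 and above, 2449 with array weights, 675 realigned with 2 values in every group, 1977 with null and siRNA samples alone, and 308 to 1437 without 1 sample.

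The replicate block, which pairs same-numbered samples, called Slc38a3 in siRNA against wild type (-2.26) and changed no other call of a member. The alternatives with residuals subtracted, with realigned samples in array pairs or with 2 values in every group, and with null and siRNA samples alone were chosen after seeing the data.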
